A study of Mus musculus with 45 samples.

Results

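Many regions of the human genome carry common variants that raise the risk of Alzheimer's disease (AD), and each such locus is usually named after a nearby gene. The mouse counterparts of 10 of these genes were followed here in the hippocampus of transgenic mice on a standard or a Western diet. They are Cd33, Ms4a6d, Spi1, Mef2c, Bin1, Picalm, Cd2ap, Sorl1, Ptk2b and Fermt2. The rule was membership of a human risk locus and used no measured value, although the list was drawn up with earlier results of these data known. All 10 were found among the 15897 genes measured.

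Hippocampal mRNA was sequenced from 45 female mice, each a separate animal of the C57Bl/6J strain, killed at 13 months of age. The 4 genotypes were wild type (AwTw), tau P301L transgenic (AwT+), APP/PS1 transgenic (A+Tw) and transgenic for both (A+T+). The A+ transgene, driven by the PrP promoter of the mouse, encodes both PS1dE9 (human) and APPswe (part mouse, part human). T+ mice expressed human tau P301L under the CaMKII promoter, which is active in forebrain excitatory neurons. Each genotype was split from 7 months of age between standard chow (STD, 5% fat and 0% cholesterol) and a typical Western diet (TWD, 21% fat, 0.15% cholesterol and 35% sucrose). The STD groups held 6 mice for AwTw and for AwT+, 5 for A+Tw and 4 for A+T+, and each TWD group held 6. Thus 21 A+ mice can be compared with 24 Aw mice, 22 T+ with 23 Tw, and 24 mice on TWD with 21 on STD. The labels also give a batch, without saying of what, with 20 mice in batch 0 and 25 in batch 1.

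The values are variance-stabilized counts, a log2-like scale on which a difference of 1 is about a doubling for well-expressed genes and less than that for genes with few reads. Differences below are on this scale, and the read depth of each mouse cannot be read from it. The A+ transgene was visible in the table, with App 0.90 ± 0.049 (SE) and Prnp 1.11 ± 0.045 higher than in Aw mice (limma, adjusted p = 3.89e-18 and 5.00e-22) and no overlap between the 21 and 24 mice in either gene. Mapt did not separate T+ from Tw mice (0.06 ± 0.055, adjusted p = 1.00), so this table holds no such check of the human tau transgene. Markers of forebrain neurons were abundant, with Camk2a between 15.2 and 16.4 in every mouse. Markers of the choroid plexus, a tissue that lies next to the hippocampus, varied widely, and Ttr ran from 7.49 to 18.08.

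The genes fall into a few functional groups. Cd33, a lectin that binds sialic acids, and Ms4a6d, a membrane protein of the MS4A family, sit on the surface of myeloid cells, which in brain are chiefly microglia, the resident phagocytes that gather around β-amyloid plaques. Spi1 encodes PU.1, the transcription factor that myeloid cells depend on, and Mef2c encodes a transcription factor of both neurons and microglia. Bin1 and Picalm shape and coat membrane during clathrin-mediated endocytosis, Cd2ap links endocytic membrane to actin, and Sorl1 is a sorting receptor that carries APP between endosomes and the Golgi. Ptk2b encodes Pyk2, a calcium-responsive tyrosine kinase of neurons, and Fermt2 encodes kindlin-2, which activates integrins at focal adhesions.

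PU.1 recognises DNA around the letters GAGGAA, and the upstream sequence of the other genes was searched for this core because Spi1 was the gene that differed with the A+ genotype. RefSeq starts (GRCm38.p6) were matched for 6 of the 10 genes, Cd33, Picalm, Sorl1, Mef2c, Fermt2 and Cd2ap, with 9 starts in all. The 250 bases before the start held the core, on either strand, at 4 of these 9 starts and at 23.3% of all 32851 starts in the table. Mef2c and Sorl1 had more than 1 start each, so the 9 are not separate genes. The windows of Cd2ap and Fermt2, without a match, held 241 and 53 bases that GENCODE M21 annotates as exons of the gene itself. The matches belonged to 3 genes and all lay on the strand of the gene. They are shown in capitals, within the 250 bases where no UTR is annotated there and within 30 bases otherwise.
Cd33, chr7:43533380-43533409, minus strand, core 226 bases before the start: acagtggaatggGAGGAAgccacaaagaag
Picalm, chr7:90129963-90130212, plus strand, cores 57 and 31 bases before the start: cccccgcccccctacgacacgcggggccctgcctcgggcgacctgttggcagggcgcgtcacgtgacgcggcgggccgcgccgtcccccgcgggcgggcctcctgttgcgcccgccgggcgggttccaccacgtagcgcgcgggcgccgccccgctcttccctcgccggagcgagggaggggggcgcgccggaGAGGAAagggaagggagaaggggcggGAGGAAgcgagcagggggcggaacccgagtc
Mef2c, chr13:83503784-83504033, plus strand, core 122 bases before the start: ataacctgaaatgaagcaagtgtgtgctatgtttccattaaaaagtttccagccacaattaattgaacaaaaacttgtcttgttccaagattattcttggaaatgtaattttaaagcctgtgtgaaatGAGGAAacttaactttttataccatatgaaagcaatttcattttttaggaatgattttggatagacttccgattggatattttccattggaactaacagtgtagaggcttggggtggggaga
Mef2c, chr13:83523458-83523487, plus strand, core 186 bases before a second start: ggggcattctccGAGGAAgctgtcctctca
The Cd33 match lies in 57 bases of the window that GENCODE M21 annotates as a UTR exon of another Cd33 transcript, and the match at the second Mef2c start lies at the edge of such an exon. The Picalm window was rich in G and C (79.2%) and shared 22 bases with an exon of the divergent RNA 2310010J17Rik, while the first Mef2c window held 33.6% G and C and no annotated exon. The match is a description of letters and not of binding.

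The genes spanned nearly the whole range of expression. Ptk2b (chr14:66153257-66281052, mean value 14.04) was above 99.6% of genes, Bin1 (chr18:32377230-32435737, 12.33) above 97.8% and Sorl1 (chr9:41964720-42124297, 11.85) above 96.2%. Picalm (chr7:90130213-90213465, 10.21), Mef2c (chr13:83504034-83667080, 9.87) and Fermt2 (chr14:45458795-45530118, 9.79) followed. Cd2ap (chr17:42792951-42876665, 7.55), Spi1 (chr2:91082390-91115756, 7.03), Cd33 (chr7:43524216-43544428, 6.82) and Ms4a6d (chr19:11586604-11604849, 5.43) were the low ones, and Ms4a6d was above 4.15% of genes only. These are levels not corrected for transcript length, with gene bounds from GENCODE M21 (GRCm38). When the 8 group means of a gene were put in order, each of the 7 steps between neighbours was smaller than the SD between mice of a group, and this held for all 10 genes. Small steps do not show that the groups were alike, and the share over all genes was not counted. The lowest and highest means of each gene lay further apart than this SD, 0.86 against 0.31 in Spi1 and 0.43 against 0.34 in Sorl1.

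To see how the risk locus genes responded to APP/PS1, the 4 A+ groups were compared with the 4 Aw groups. Spi1 was higher in A+ mice and was the only 1 of the 10 genes to pass the test, where 599 of 15897 genes did (3.77%). In A+ mice Spi1 ran from 6.61 to 7.91 with a median of 7.38, and in Aw mice from 6.13 to 7.28 with a median of 6.67. Of the 21 A+ mice 13 lay above every Aw mouse, and 20 lay above the Aw median. The difference was 0.57 ± 0.095 (SE; 95% interval 0.37 to 0.76; limma, adjusted p = 4.51e-05). More myeloid cells and more Spi1 RNA per cell cannot be told apart in whole tissue.

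Both surface genes pointed the same way without reaching the threshold over all genes. Cd33 ran from 6.44 to 7.62 (median 6.94) in A+ and from 6.20 to 7.40 (median 6.67) in Aw mice, and 15 of 21 A+ mice lay above the Aw median. Its difference was 0.30 ± 0.095 (interval 0.11 to 0.49; limma, adjusted p = 0.0658). Ms4a6d ran from 4.85 to 6.24 (median 5.60) in A+ and from 5.01 to 5.84 (median 5.25) in Aw mice, and 18 of 21 A+ mice lay above the Aw median. Its difference was 0.28 ± 0.083 (interval 0.11 to 0.44; limma, adjusted p = 0.0517). Both fell on the other side of the threshold in some refits that left out 1 mouse, Cd33 in 6 and Ms4a6d in 10 of 45, while Spi1 passed in all 45 (adjusted p between 1.77e-05 and 0.000209).

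**Figure D1:**
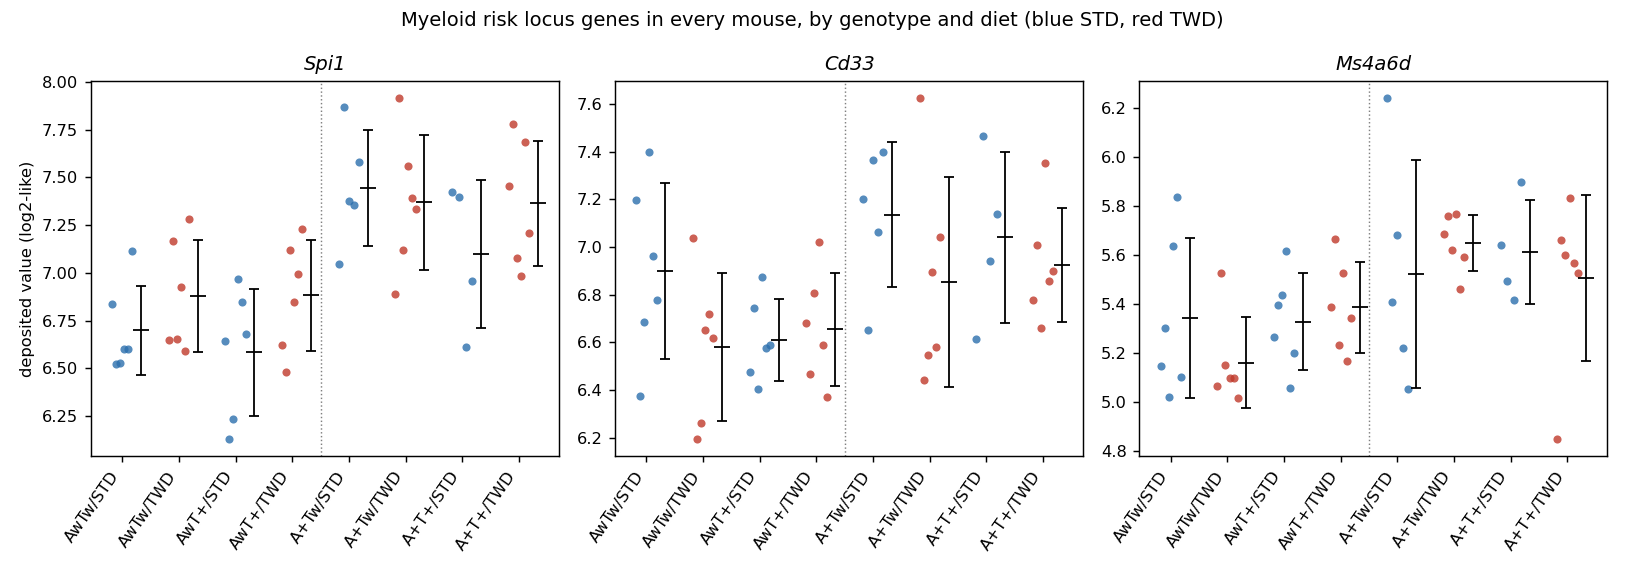
Deposited values (log2-like scale, vertical axis) of Spi1, Cd33 and Ms4a6d in each of the 45 mice, by genotype and diet on the horizontal axis, with STD in blue and TWD in red and the mean ± SD in black; the dotted line separates the 4 Aw groups from the 4 A+ groups. All 4 A+ group means of Spi1, from 7.10 to 7.44, lie above all 4 Aw group means, from 6.58 to 6.88.

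The other 7 genes did not pass for A+ against Aw. Their differences ran from -0.21 in Mef2c (interval -0.60 to 0.18) to 0.06 in Bin1 (interval -0.08 to 0.21), with adjusted p between 0.488 in Sorl1 and 0.910 in Cd2ap. Picalm was at -0.10, Sorl1 at -0.14, Fermt2 at -0.10, Ptk2b at -0.04 and Cd2ap at 0.04. The median over the 10 genes was 0.00 and that over all genes -0.02. The intervals of Mef2c, Cd2ap (-0.26 to 0.34), Sorl1 (-0.34 to 0.06) and Fermt2 (-0.33 to 0.13) include differences as large in size as that of Cd33.

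The difference in Spi1 was present under both diets. On STD the 5 A+Tw mice had values of 7.04, 7.35, 7.38, 7.58 and 7.87 and the 4 A+T+ mice 6.61, 6.96, 7.40 and 7.43, against a range of 6.52 to 7.11 in the 6 AwTw and 6.13 to 6.97 in the 6 AwT+ mice. All but 1 A+Tw mouse on STD exceeded the highest AwTw mouse. On TWD the 6 A+Tw mice ran from 6.89 to 7.91 (median 7.36) and the 6 A+T+ mice from 6.98 to 7.78 (median 7.33), against 6.59 to 7.28 (median 6.79) in AwTw and 6.48 to 7.23 (median 6.92) in AwT+ mice. Spi1 was higher in A+ mice by 0.62 ± 0.14 on STD and 0.51 ± 0.13 on TWD (limma, adjusted p = 0.00465 and 0.0297), and it was the only 1 of the 10 genes to pass on either diet, where 2.07% and 1.53% of all genes passed. The interaction of A+ with diet was -0.12 ± 0.19 for Spi1 (adjusted p = 0.922).

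In single groups, Spi1 was higher in A+Tw/STD than in AwTw/STD by 0.74 ± 0.19 (limma, adjusted p = 0.0426; 0.925% of genes passed), a call that was lost in 10 of 45 refits without 1 mouse. The corresponding differences were 0.41 ± 0.20 in A+T+/STD, 0.51 ± 0.18 in A+Tw/TWD and 0.51 ± 0.18 in A+T+/TWD (adjusted p = 0.347, 0.435 and 0.365; 1.32%, 0.824% and 0.73% of genes passed), and none of the 10 genes passed there. Within each diet these comparisons share their AwTw mice.

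Within each batch alone the A+ differences of the 3 myeloid genes were above 0. In batch 1 Spi1 was 0.74 ± 0.13 higher in A+ mice (adjusted p = 0.00121; 1.81% of genes passed), and in batch 0 it was 0.37 ± 0.16 higher (adjusted p = 0.545; 1.16% of genes passed). Cd33 showed the reverse order, with 0.51 ± 0.14 in batch 0 and 0.07 ± 0.12 in batch 1 (adjusted p = 0.134 and 0.752). Ms4a6d was 0.27 ± 0.075 and 0.20 ± 0.14 higher (adjusted p = 0.135 and 0.444). Whether the batches differed in these effects was not tested.

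**Figure D2:**
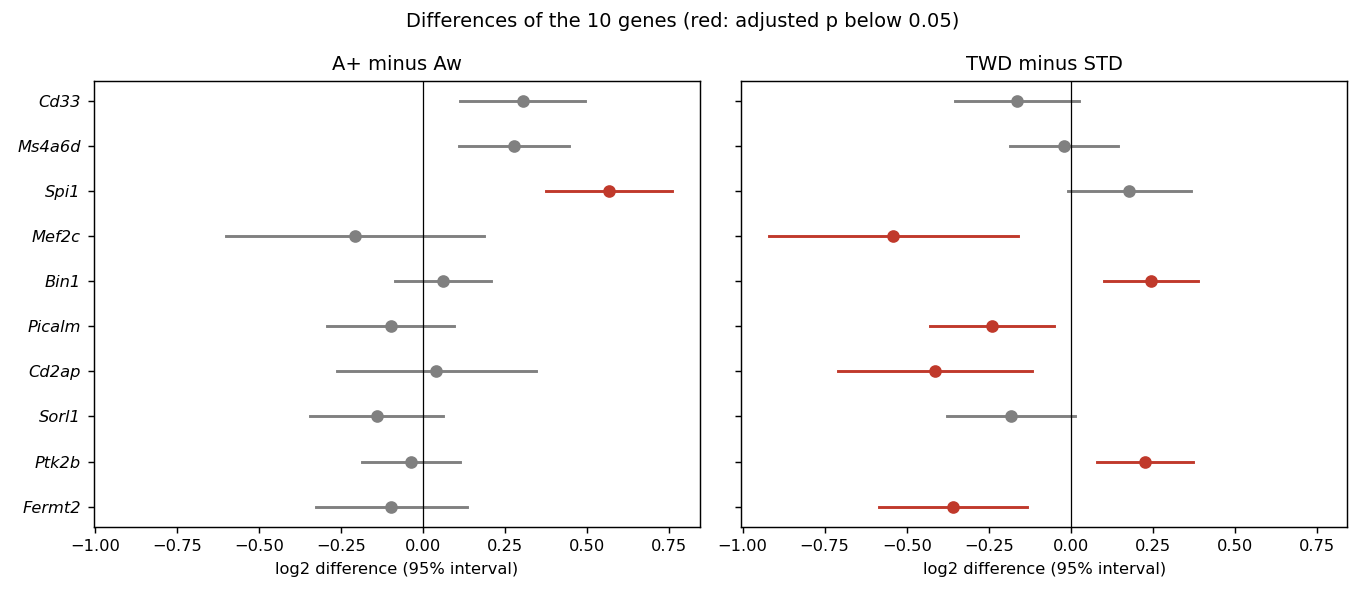
Log2 differences of the 10 genes (points) with 95% intervals (lines) for A+ minus Aw on the left and TWD minus STD over all genotypes on the right; red marks an adjusted p below 0.05 (limma, over all genes). Spi1 at 0.57 is the red gene on the left, and 6 genes between -0.54 and 0.24 are red on the right.

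Microglial markers were higher in A+ mice as a group. Of 20 markers 16 rose and none fell, with a median difference of 0.73, and their mean level ran from 9.29 to 10.01 in A+ and from 8.55 to 9.19 in Aw mice, without overlap. Cd68, a lysosomal protein of phagocytes, rose by 1.74 ± 0.085, Tyrobp, the adaptor that signals for Trem2, by 1.72 ± 0.093 and C1qa, a subunit of complement C1q, by 1.19 ± 0.10 (limma, adjusted p = 1.31e-19, 3.70e-18 and 1.20e-11). Over all 20 markers the differences ran from 0.06 to 1.74. The difference of Spi1 was exceeded by 13 of the 20 markers and those of Cd33 and Ms4a6d by 16 each. Relative to the mean of the 20 markers in the same mouse, Spi1 was at -2.34 ± 0.29 (SD) in A+ and -2.12 ± 0.27 in Aw mice, Cd33 at -2.69 ± 0.39 and -2.19 ± 0.36, and Ms4a6d at -4.10 ± 0.36 and -3.57 ± 0.29. Mean values were 7.03, 6.82 and 5.43 for Spi1, Cd33 and Ms4a6d, and from 6.12 in Gpr34 to 10.82 in Csf1r for the markers. On this scale differences are smaller for genes with few reads. Neither comparison therefore shows whether Spi1, Cd33 and Ms4a6d changed less than the markers. Cells at the borders of the brain and blood leukocytes also express these genes, and 3 of 11 of their markers were measured (Mrc1, Cd163 and Lyve1), with mean levels from 5.15 to 6.23 in A+ and 5.13 to 6.25 in Aw mice and none passing. The mean of 12 choroid plexus markers ran from 6.07 to 9.83 in A+ and from 5.60 to 10.18 in Aw mice, with all 12 higher in A+ mice (median 0.82) and none passing. With a choroid plexus score in the model Spi1 differed by 0.56 ± 0.10 (adjusted p = 0.000206).

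Family members and partners of the myeloid genes were counted in the same way, and 3.77% of all genes passed in this comparison. Of 11 measured Siglecs, MS4A genes and phosphatases 5 rose and none fell. Among them were Ptpn6, the phosphatase that inhibitory Siglecs recruit (0.98 ± 0.11), Siglech, also counted among the microglial markers (0.72 ± 0.069), and Siglecf (0.56 ± 0.074, limma, adjusted p = 3.79e-09, 1.09e-10 and 3.37e-07). Of 15 myeloid and MEF2 transcription factors and histone deacetylases that repress MEF2, 5 rose. They were led by Irf8 (1.08 ± 0.057), which acts with PU.1, Irf5 (0.67 ± 0.067) and Cebpa (0.53 ± 0.084, limma, adjusted p = 1.82e-18, 4.90e-10 and 1.48e-05). Among 44 other measured genes at AD risk loci 12 rose and none fell, led by Trem2, the microglial lipid receptor (1.82 ± 0.099), Ctsh, a lysosomal cysteine protease (0.72 ± 0.077), and Abi3 (0.68 ± 0.087, limma, adjusted p = 4.29e-18, 2.04e-09 and 1.76e-07). The median of these other risk locus genes was 0.05. Inpp5d was listed both with them and with the phosphatases.

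Partners of the endocytic and adhesion genes were counted too. None of 38 clathrin, adaptor and retromer genes passed for A+ against Aw, where the 3.77% of all genes would amount to about 1 gene, with differences from -0.31 to 0.12 and a median of -0.07. Of 22 focal adhesion genes and kindlin partners 5 rose and none fell. Those named were Itgb2 (0.96 ± 0.085), the leukocyte integrin subunit, Itgb5 (0.61 ± 0.087) and Fermt3 (0.61 ± 0.068), the kindlin of blood cells, whereas Fermt2 itself was at -0.10 ± 0.11 (limma, adjusted p = 1.48e-11, 2.15e-06, 8.15e-09 and 0.691).

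Tau P301L left the 10 genes without a detectable difference. For T+ against Tw 3 of all genes passed (0.0189%) and none of the 10 (limma), and none of the 10 was below an unadjusted p of 0.05. The largest values were 0.16 ± 0.15 in Cd2ap and -0.14 ± 0.074 in Ptk2b (interval -0.29 to 0.01), and Spi1 was at -0.11 ± 0.095. The genes that passed were Arsi (1.15 ± 0.13) and Camk4 (0.42 ± 0.082; adjusted p = 4.36e-07 and 0.0418) and 1 gene without a symbol. Between AwT+ and AwTw mice 0% of genes passed on either diet, with 380 genes on STD and 484 on TWD below an unadjusted p of 0.05, none of them among the 10. No gene passed for the interaction of A+ with T+ (0%; 232 below an unadjusted p of 0.05, none of the 10), and the 10 values ran from -0.13 in Ms4a6d to 0.09 in Cd33.

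For the diet, mice on TWD were compared with mice on STD across all genotypes, holding genotype and batch. Mef2c, Cd2ap, Fermt2 and Picalm were lower on TWD and Bin1 and Ptk2b were higher, so 6 of the 10 genes passed where 29.4% of all genes did, 16% higher and 13.4% lower. Each of these 6 differences was larger in batch 1 than in batch 0. Cd33 (-0.16 ± 0.093), Sorl1 (-0.18 ± 0.096), Spi1 (0.18 ± 0.093) and Ms4a6d (-0.02 ± 0.082) did not pass (limma, adjusted p = 0.165, 0.135, 0.133 and 0.860). After quantile normalization Sorl1 passed as well (-0.25 ± 0.096, adjusted p = 0.0461). The median over the 10 genes was -0.17, against 0.00 over all genes.

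Mef2c ran from 8.11 to 11.30 (median 9.67) on TWD and from 9.02 to 10.72 (median 10.36) on STD. The groups overlapped, but only 2 of 24 mice on TWD lay above the STD median. Its difference was -0.54 ± 0.19 (interval -0.92 to -0.16; limma, adjusted p = 0.0306). Its call was lost when any of 3 mice on TWD was left out, A+T+ replicate 1 (-0.47, adjusted p = 0.0525), AwT+ replicate 3 (-0.49, 0.0581) or AwTw replicate 3 (-0.46, 0.0602).

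Fermt2 ran from 8.67 to 10.34 (median 9.75) on TWD and from 9.25 to 10.37 (median 9.98) on STD. Of the mice on TWD 4 of 24 lay above the STD median and 5 lay below every STD mouse. Its difference was -0.36 ± 0.11 (limma, adjusted p = 0.0203) and passed in all 45 refits without 1 mouse. Cd2ap ran from 5.99 to 8.14 (median 7.43) on TWD and from 6.84 to 8.45 (median 7.77) on STD, with 6 of 24 above the STD median. Its difference was -0.41 ± 0.15 (limma, adjusted p = 0.0324) and passed in 37 of 45 refits. Picalm ran from 9.42 to 10.74 (median 10.08) on TWD and from 9.68 to 10.87 (median 10.30) on STD, with 5 of 24 above the STD median. Its difference of -0.24 ± 0.094 lay at the threshold (adjusted p = 0.0494) and passed in 18 of 45 refits.

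Both genes that were higher on TWD are among the most abundant of the 10. Bin1 ran from 11.93 to 12.96 (median 12.42) on TWD and from 11.92 to 12.74 (median 12.21) on STD, with 21 of 24 mice on TWD above the STD median. It was higher by 0.24 ± 0.071 (interval 0.10 to 0.39; limma, adjusted p = 0.0174). Ptk2b ran from 13.66 to 14.54 (median 14.17) on TWD and from 13.54 to 14.53 (median 13.93) on STD, with 19 of 24 above the STD median. It was higher by 0.23 ± 0.072 (interval 0.08 to 0.37; limma, adjusted p = 0.0227). Both passed in all 45 refits.

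**Figure D3:**
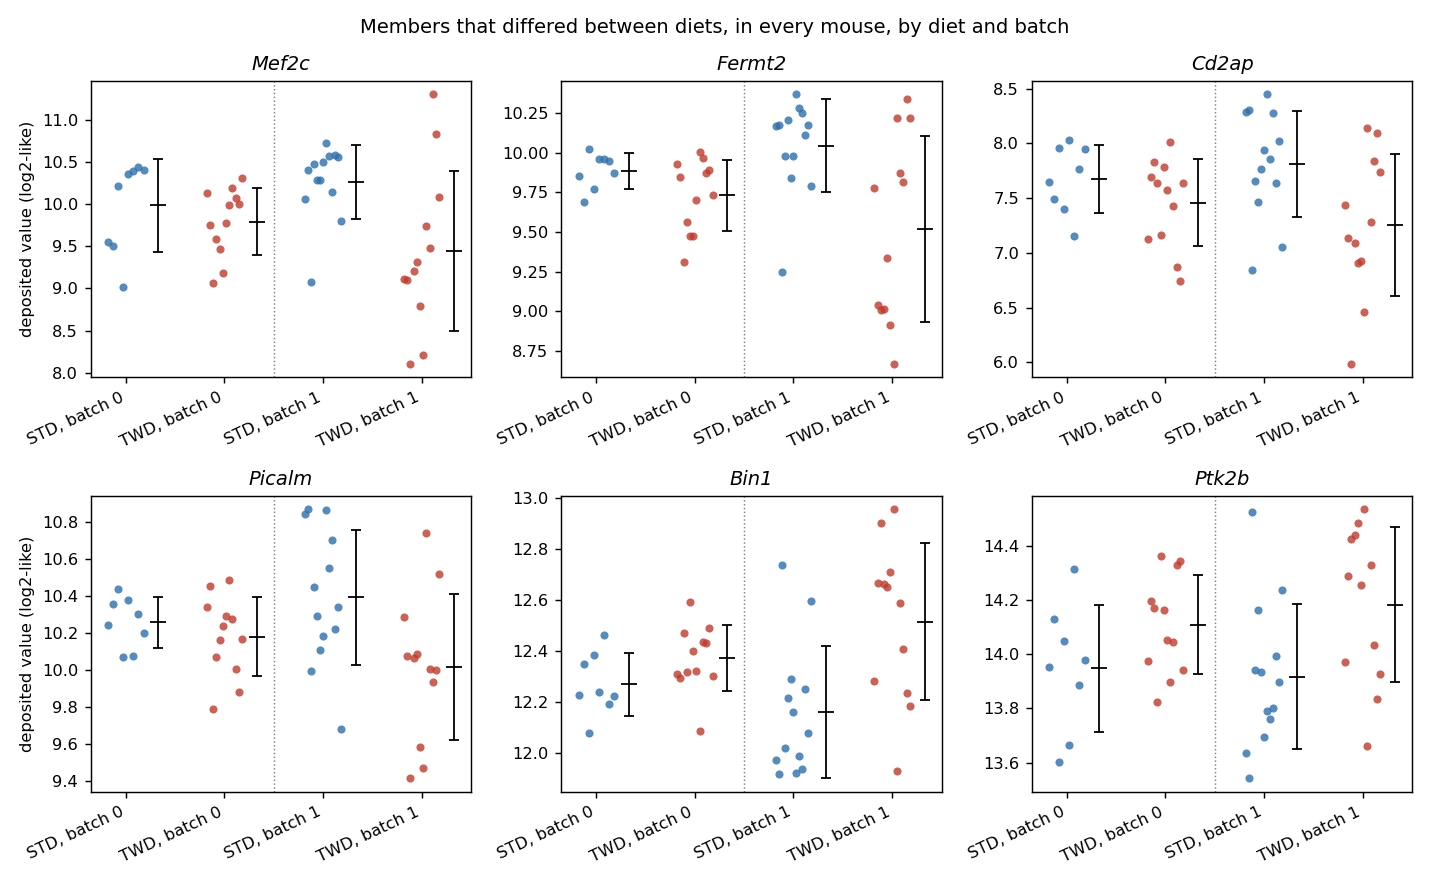
Deposited values (log2-like scale, vertical axis) of the 6 genes that passed for TWD against STD, in each of the 45 mice, by diet and batch on the horizontal axis, with STD in blue and TWD in red and the mean ± SD in black; the dotted line separates batch 0 from batch 1. The diets stand further apart in batch 1, where Mef2c differed by -0.91, than in batch 0, where it differed by -0.14.

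Within the batches the estimated diet differences were unequal in size, and whether the batches differed in the diet effect was not tested. In batch 0, with 8 mice on STD and 12 on TWD, no gene passed (limma, 0%; 882 of all genes and 1 of the 10 below an unadjusted p of 0.05), and Mef2c was at -0.14 ± 0.21, Fermt2 at -0.11 ± 0.091, Cd2ap at -0.26 ± 0.15, Picalm at -0.08 ± 0.095, Bin1 at 0.10 ± 0.065 and Ptk2b at 0.19 ± 0.089. In batch 1, with 13 mice on STD and 12 on TWD, 40.9% of genes passed and 7 of the 10. There Mef2c was at -0.91 ± 0.28, Cd2ap at -0.60 ± 0.23, Fermt2 at -0.56 ± 0.18, Picalm at -0.39 ± 0.14, Cd33 at -0.32 ± 0.12, Bin1 at 0.39 ± 0.11 and Ptk2b at 0.29 ± 0.11 (adjusted p between 0.0179 and 0.0428). The 6 genes kept their direction in both batches.

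A broad axis of variation between mice moved with the diet. After groups and batch were fitted, the first component of the residuals over all genes held 41.3% of the residual variance. A score was then made for each mouse by applying the gene weights of this component to its centred values, which still hold the differences between groups. The score was 11.7 ± 28.8 (SD) on TWD and -13.4 ± 25.1 on STD, and it was 21.2 ± 36.5 and -19.6 ± 29.2 in batch 1 against 2.17 ± 14.3 and -3.25 ± 11.9 in batch 0. The 6 genes that passed were tied to it, with residual correlations over the 45 mice of 0.95 in Bin1, 0.81 in Ptk2b, -0.67 in Mef2c, -0.85 in Cd2ap, -0.87 in Fermt2 and -0.89 in Picalm, where the median size over all genes was 0.54. Sorl1 (-0.41), Spi1 (0.42), Cd33 (-0.48) and Ms4a6d (-0.49) were less so. Because the score itself differed between the diets, using it as a covariate also takes out diet difference. With it no gene passed for the diet (limma, 0%; 1281 of all genes and none of the 10 below an unadjusted p of 0.05), and the 6 values lay between -0.15 in Mef2c and 0.05 in Ptk2b, with Picalm at 0.02. The same score left Spi1 0.51 ± 0.088 higher in A+ mice and brought Cd33 (0.36 ± 0.086) and Ms4a6d (0.33 ± 0.076) past the threshold (adjusted p = 6.96e-05, 0.00436 and 0.00338; 6.47% of genes passed). The score also differed with genotype, at 6.27 ± 27.6 (SD) in A+ and -5.49 ± 30.8 in Aw mice. It was built from the residuals of these same values, so these calls are not separate evidence for Cd33 and Ms4a6d.

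**Figure D4:**
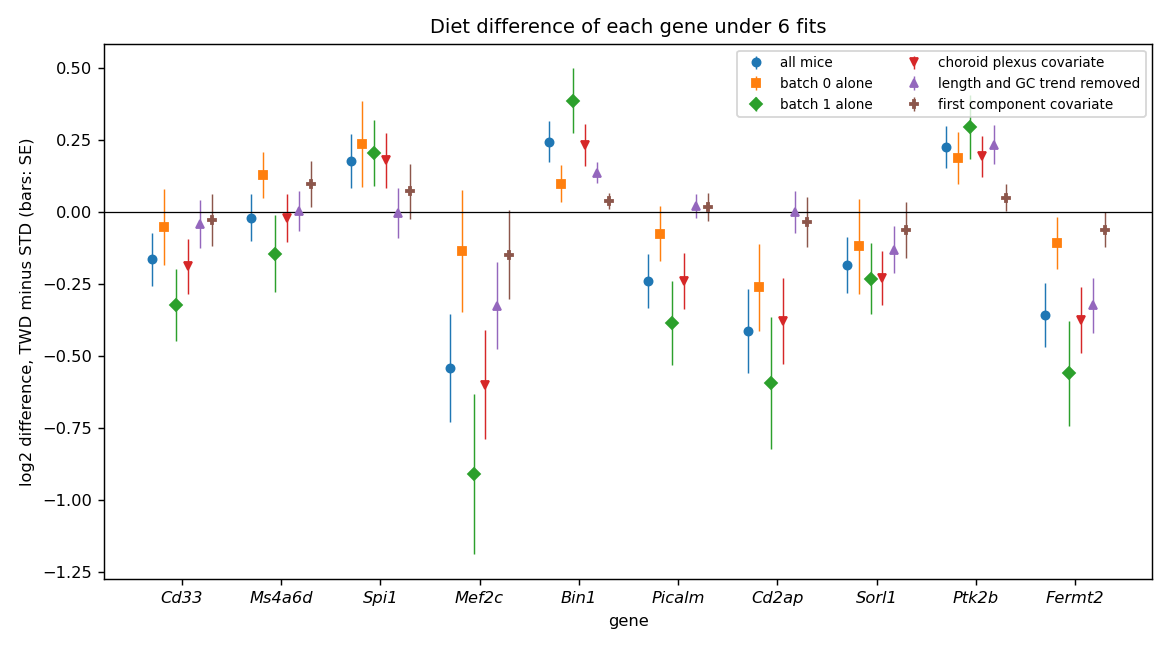
Log2 difference between TWD and STD (vertical axis; bars are SE) for each of the 10 genes (horizontal axis) in all mice, in each batch alone, with a choroid plexus score or the first residual component as a covariate, and after removal of the dependence on transcript length and GC content in each mouse. Mef2c runs from -0.91 in batch 1 to -0.14 in batch 0, and Ptk2b stays between 0.05 and 0.29.

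Transcript length and base composition differed among the genes of this axis. Cd2ap had a mean transcript length above 92.3% and a GC content above 1.47% of genes, Picalm above 76.4% and 8.81%, and Mef2c above 63.2% and 11.1%, whereas Bin1 lay above 51.3% for length and 86.0% for GC content, Ptk2b above 81.1% and 64.5%, and Fermt2 above 22.6% and 29.6%. When a trend over length and GC content was removed from each mouse, a step added after the data were seen, 14.1% of genes passed for the diet and 3 of the 10, Bin1 (0.14 ± 0.038), Ptk2b (0.23 ± 0.068) and Fermt2 (-0.32 ± 0.097; adjusted p = 0.0215, 0.0237 and 0.0259). Cd2ap was then at 0.00 ± 0.073, Picalm at 0.02 ± 0.041 and Mef2c at -0.33 ± 0.15 (adjusted p = 0.998, 0.765 and 0.126). In the same fit 5.71% of genes passed for A+ against Aw and 4 of the 10, Spi1 (0.48 ± 0.086), Cd33 (0.35 ± 0.085), Ms4a6d (0.28 ± 0.071) and Cd2ap (0.25 ± 0.075; adjusted p = 0.000126, 0.00617, 0.0108 and 0.0388). Cd2ap was thus at 0.04 or at 0.25 in A+ mice depending on this step. The part that the component, length and base composition have in the diet differences was not tested.

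Within single genotypes 1 of the 10 genes passed for the diet, in AwTw mice. Bin1 was at 11.92 to 12.46 (median 12.00) in the 6 AwTw/STD and 12.18 to 12.96 (median 12.54) in the 6 AwTw/TWD mice, a difference of 0.44 ± 0.14 (limma, adjusted p = 0.0498; 9.35% of genes passed). Bin1 kept this call in 13 of 45 refits without 1 mouse and lost it in 32 (adjusted p between 0.00993 and 0.184). The 5 others that passed over all genotypes did not pass in AwTw mice, with adjusted p between 0.0567 and 0.0908 and Mef2c at -0.83 ± 0.37. Such values were common there. In AwTw mice 6391 of all genes (40.2%) and 6 of the 10 were below an unadjusted p of 0.05, and Mef2c ranked 5177 of 15897 by p (limma). In the other 3 genotypes no gene passed (0% each; AwT+ 1183, A+Tw 705 and A+T+ 409 below an unadjusted p of 0.05, none of the 10). The interaction of A+ with diet called no gene either (0%; 412 below an unadjusted p of 0.05, none of the 10), so a difference between A+ and Aw mice in their response to TWD was not shown. Its value was 0.25 ± 0.39 for Mef2c, 0.25 ± 0.30 for Cd2ap and -0.14 ± 0.15 for Bin1.

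For the diet 29.4% of all genes passed, and the lists of partners are to be read against that share. Of 38 clathrin, adaptor and retromer genes 11 rose and 6 fell (44.7%). The largest differences were decreases, in Vps35, the core of the retromer (-0.51 ± 0.18), Snap91, the neuronal relative of Picalm (-0.46 ± 0.14), and Snx27, an adaptor of the retromer (-0.35 ± 0.11, limma, adjusted p = 0.0306, 0.0179 and 0.0227). The largest increases, picked after their values were seen, were in the clathrin light chain Cltb (0.33 ± 0.095) and the AP-2 adaptor subunits Ap2a1 (0.32 ± 0.084) and Ap2s1 (0.31 ± 0.078, adjusted p = 0.0167, 0.0157 and 0.0157). Of 15 myeloid and MEF2 transcription factors and histone deacetylases that repress MEF2, 3 rose and 5 fell (53.3%). Mef2a, a relative of Mef2c, was at -0.44 ± 0.13, the deacetylase Hdac9 at -0.41 ± 0.13 and Cebpb at 0.33 ± 0.10 (limma, adjusted p = 0.0183, 0.0199 and 0.0210). Of 22 focal adhesion genes 4 rose and 2 fell (27.3%), with Lims1, an adaptor of integrin-linked kinase, at -0.42 ± 0.12, Itgb1, the integrin subunit that kindlins bind, at -0.34 ± 0.13 and Itgb5 at 0.25 ± 0.088 (adjusted p = 0.0159, 0.0366 and 0.0329). Of 11 Siglec, MS4A and phosphatase genes 2 rose and none fell (18.2%), and these were Mag (0.21 ± 0.077) and Siglech (0.17 ± 0.067; limma, adjusted p = 0.0382 and 0.0497). Of the 44 other risk locus genes 6 rose and 7 fell (29.5%), a share like that of all genes, with Sppl2a, an intramembrane protease, at -0.55 ± 0.19, Tmem106b, a lysosomal membrane protein, at -0.52 ± 0.18 and Adam10, an α-secretase, at -0.42 ± 0.13 (adjusted p = 0.0272, 0.0298 and 0.0176).

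Cell-type markers were counted against the same 29.4%. Of 20 microglial markers 11 rose and 1 fell (60%), of 15 neuronal markers 4 rose and 3 fell (46.7%), of 11 astrocyte markers 2 rose and 3 fell (45.5%), of 11 oligodendrocyte markers 4 rose and 1 fell (45.5%), and of 11 endothelial markers 2 rose and 1 fell (27.3%). The mean of the microglial markers ran from 8.75 to 9.87 on TWD and from 8.55 to 10.01 on STD, and that of the neuronal markers from 12.70 to 13.29 and from 12.92 to 13.39. Choroid plexus markers were lower on TWD in 12 of 12 cases (median -0.56), with none passing. With the choroid plexus score in the model the diet value was -0.60 ± 0.19 in Mef2c, -0.24 ± 0.097 in Picalm and 0.23 ± 0.073 in Bin1 (adjusted p = 0.0197, 0.0541 and 0.0197).

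Between mice of the same group the genes formed opposite sets. Over the residuals of 45 mice Bin1 and Ptk2b rose and fell together (r = 0.89), and Picalm and Cd2ap did so too (r = 0.80), while Bin1 ran against Picalm (r = -0.89), Cd2ap (r = -0.87) and Fermt2 (r = -0.82). Mef2c went with Fermt2 (r = 0.77) and Sorl1 (r = 0.70). The myeloid genes were weakly related, with r = -0.22 for Spi1 and Cd33, -0.24 for Spi1 and Ms4a6d and 0.13 for Cd33 and Ms4a6d. All these mice share the broad axis described above, so the values describe this table and carry no test.

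**Figure D5:**
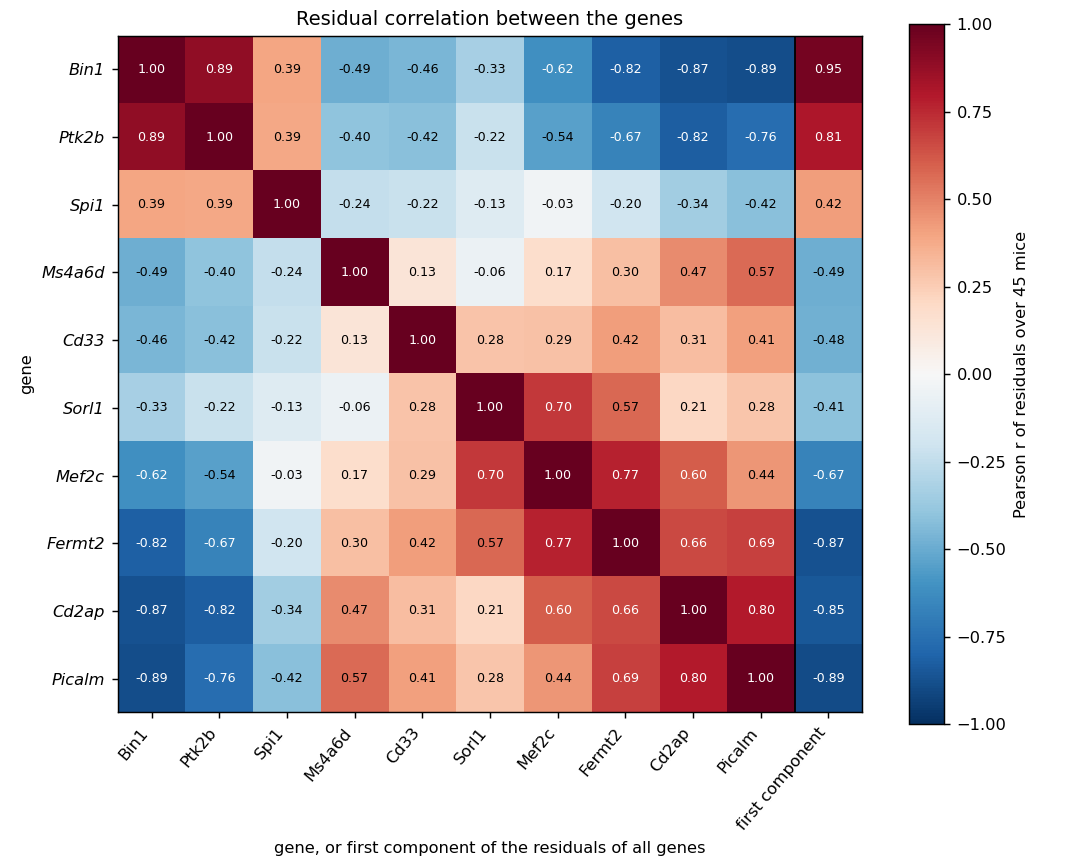
Pearson correlation over 45 mice of the residuals of each pair of the 10 genes after groups and batch were fitted, with the correlation of each gene with the first component of all genes in the last column; red is positive and blue negative. Bin1 and Ptk2b form a block at 0.89 that runs against Picalm, Cd2ap and Fermt2, and the pairs among Spi1, Cd33 and Ms4a6d lie between -0.24 and 0.13.

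The genes most alike to each member across the same residuals were recorded as a description. For Bin1 they were B3gat3 (r = 0.97), Aplp1 (0.97) and H1fx (0.97), and for Ptk2b the neuronal genes Hpca (0.97), Camk2b (0.97) and Cnih2 (0.96). For Mef2c they were Mef2a (0.93), Akap5 (0.92) and Arhgap32 (0.91), and for Sorl1 Dnajc5 (0.90), Glg1 (0.90) and Csrnp3 (0.90). For Picalm they were Dld (0.93), Aasdhppt (0.93) and Tomm70a (0.93), for Cd2ap Zdhhc21 (0.91), Rbm26 (0.90) and Ccng1 (0.90), and for Fermt2 Slc4a4 (0.94), Ankrd17 (0.94) and Ccser2 (0.94). The myeloid genes had looser neighbours, with Nxt2 (0.67), Pcdhb19 (0.66) and C3ar1 (0.63) for Cd33, Ddx4 (0.68), Gm21781 (0.67) and Abraxas1 (0.66) for Ms4a6d, and Usb1 (0.68), Nono (0.64) and Efna2 (0.62) for Spi1. Bin1 had 1574 genes above 0.8 and 1534 below -0.8, whereas Spi1, Cd33 and Ms4a6d had none on either side. The lower level of Spi1, Cd33 and Ms4a6d was not allowed for here.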

How the data were processed

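Hippocampal poly(A) RNA of 45 mice was sequenced as single 50-base reads in 2 lanes. The authors trimmed the reads (Trimmomatic 0.38), removed rRNA and mitochondrial reads (Bowtie2 2.2.3), quantified transcripts (kallisto 0.44.0), summed them per gene, kept genes with a mean count above 10, and applied the variance-stabilizing transformation of DESeq2 (1.22.2). They then removed batch with limma (3.38.3), so the deposited values are log2-like. Every gene has the same mean in both batches. The depth of each mouse is not given by these values, and precision rests on the spread between mice.

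Groups and batch came from the labels. One limma 3.58.1 fit (R 4.3.3, mean trend, batch as covariate) of the 8 groups gave the genotype, within-genotype and interaction contrasts, in which A+ against Aw is the mean of 4 groups against the mean of 4. The diet effect over all genotypes came from a model with additive terms for genotype, diet and batch. Tests were two-sided, with Benjamini-Hochberg adjustment over 15897 genes and a threshold of 0.05. The 157 genes that repeat another gene's values were kept. Symbols were found for 15695 genes in GENCODE M21. Python 3.11.15 was used for descriptions and plots.

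The 10 genes and all lists were chosen with earlier results of these data known. All 10 were named, together with App, Prnp and Mapt as a check of the labels, at most 3 called genes per other list with the largest absolute difference for A+ and for diet, and the 3 genes with the highest residual correlation per member. On simulated data with 200 changed genes, 84.5% (A+) and 85% (diet) were called at a change of 0.5, and 99.5% and 100% at 1. The simulated noise was independent between genes, whereas in the data the first component held 41.3% of the residual variance. These rates check the code and do not give the power of the fits above. Changes below 0.5 were not simulated.

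The alternatives were other thresholds, a fit without batch, separate fits per batch, added covariates (letters of the mouse label, first residual component, choroid plexus score), quantile normalization, genes above the 25th percentile of the mean, no mean trend, only the groups compared, copies counted once and each mouse left out. Contrasts within each diet and the removal of a trend over length and GC content were added after the data were seen.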

Additional observations from a re-analysis of the deposited data

Results flagged for a closer look

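In 7 of the 80 sets formed by a gene and a group, the highest or lowest mouse stood apart from the rest by Dixon's criterion, and chance alone gives about 1 in 20. These values came from 6 mice. Mef2c was low in 1 mouse each of AwTw/STD (9.50, the next at 10.40), AwT+/STD (9.55, the next at 10.22) and A+T+/STD (9.02, the next at 10.28), all 3 in batch 0. Ms4a6d was high in 1 AwTw/TWD mouse (5.53, the next at 5.15) and low in A+T+/TWD replicate 1 (4.85, the next at 5.53). That same mouse had the low Cd2ap value of its group (5.99, the next at 7.64). Fermt2 was low in AwT+/TWD replicate 3 (8.91, the next at 9.77). The 2 replicates named here are among the 3 whose omission ended the diet call of Mef2c.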

How the results depend on the processing

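For A+ against Aw, 1 of the 10 genes passed in the reported fit, and the number was 3 at a threshold of 0.1, 0 in batch 0 alone, 3 with the first residual component as a covariate, 2 after quantile normalization, 2 without the mean trend and 4 with the trend over length and GC content removed. Leaving out 1 mouse gave 1 to 3. The shares of all genes at thresholds of 0.1 and 0.01 were not counted in any comparison. Cd33, the weakest of the 3 at 0.1, ranked 660 of 15897 by p, so at least 660 genes passed there. Of all genes 3.77% passed in the reported fit. At the same threshold the share was 3.56% after quantile normalization, 3.75% without the mean trend, 5.71% with length and GC content removed and 6.47% with the component. For A+Tw/STD against AwTw/STD the 1 call became 0 at a threshold of 0.01, in batch 1 alone, with the first component or the choroid plexus score, after quantile normalization, above the 25th percentile of the mean, with only the groups compared and with length and GC content removed. Leaving out 1 mouse gave 0 to 1. Of all genes 0.925% passed in the reported fit, 0.535% in batch 1 alone, 0.415% with only the groups compared and 1.06% with the first component. Batch 0 held 1 A+Tw/STD mouse and 2 AwTw/STD mice, so no count is given for it.

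For AwTw/TWD against AwTw/STD 9.35% of all genes passed in the reported fit. The 1 call became 6 at a threshold of 0.1, 2 in batch 1 alone (25% of all genes passed) and 2 above the 25th percentile (23.9%). At 0.1 at least 5177 of 15897 genes passed, which is the rank by p of Mef2c, the weakest of those 6. The call became 0 at 0.01, in batch 0 alone (2 AwTw mice on each diet), with the label prefix or the first component, after quantile normalization, without the mean trend, with only the groups compared and with length and GC content removed. Leaving out 1 mouse gave 0 to 6. All genes swung in the same way. None of 15897 passed with the label prefix or the component, after quantile normalization or without the mean trend, and 1 passed with only the groups compared. For TWD against STD the 6 calls became 0 at 0.01, 0 in batch 0 alone, 0 with the first component and 3 with length and GC content removed. They became 5, without Picalm, with no batch covariate, the label prefix, the choroid plexus score or no mean trend, and 7 in batch 1 alone (Cd33 added) and after quantile normalization (Sorl1 added). Leaving out 1 mouse gave 3 to 6. As for the threshold of 0.01, the lowest adjusted p among the other genes named for the diet was 0.0157 (limma), so none of those passed there either. Of all genes 29.4% passed in the reported fit, 0% in batch 0 alone and with the component, and 14.1% with length and GC content removed. The share was 40.9% in batch 1 alone, 32% with the choroid plexus score, 30.4% after quantile normalization and 27% with the label prefix. The cause was not tested.

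Some values that had not passed changed sign. For A+ against Aw these were Bin1 in batch 0 (-0.051) and with the component (-0.033), Picalm in batch 0 (0.022), with the component (0.0196) and with length and GC content removed (0.0199), Cd2ap in batch 1 (-0.17) and with the choroid plexus score (-0.017), Ptk2b in batch 1 (0.050) and with the choroid plexus score (0.013), and Fermt2 with the component (0.043). For the diet these were Ms4a6d in batch 0 (0.13), with the component (0.10), after quantile normalization (0.050) and with length and GC content removed (0.0031), and Spi1 with length and GC content removed (-0.0038). Picalm, which had passed for the diet, was at 0.016 with the component and 0.020 with length and GC content removed. Leaving out 1 mouse took Cd2ap for A+ from -0.0066 to 0.14 and Ms4a6d for diet from -0.050 to 0.015.

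No paired analysis was possible because the labels carry mouse names and no replicate numbers shared between groups.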
